A study of Mus musculus with 4 samples.

Results

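The ADAM genes (a disintegrin and metalloprotease) and the ADAMTS genes (the same with thrombospondin motifs) were followed in 4 mouse mammary tumours, and none of those tested passed the threshold between the groups. Members were the genes whose symbol is Adam or Adamts with a number and at most 1 trailing letter, named by a probe set with no other gene symbol. This gave 43 genes, 28 ADAM and 15 ADAMTS, of 18193 genes so named on the array, read by 74 probe sets. Each gene was read by its brightest probe set, judged by the mean of its 4 values. Adamts2, Adamts13, Adamts14 and Adamts17 were not analysed here.

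The tumours grew from Eph4, an established line of mouse mammary epithelial cells, in nude mice, which lack a thymus and most T cells but keep macrophages, B cells and NK cells. Cells of both groups had been transduced with ETV6-NTRK3, a fusion oncogene that gives a constantly active receptor tyrosine kinase. The 2 Eph_EN tumours carried the fusion only, and those of the 2 Eph_EN_DN tumours carried TAM67 as well, a c-Jun mutant that acts as a dominant negative and blocks the AP-1 transcription factor. The comparison addressed how far tumour formation by the fusion runs through AP-1. The promoters of the constructs, whether the cells were clones, and the age of the mice are not given in the sources used here, and nothing beyond a tumour number says that tumours of a group were independent. The p-values hence reflect only how far these tumours differ from each other, judged over many genes together, and part of that spread may be technical.

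ADAM proteins are membrane-bound zinc proteases that cut the outer part of other membrane proteins, which releases growth factors and cytokines and starts Notch signalling. ADAMTS proteins are secreted zinc proteases that bind to the extracellular matrix and cut proteoglycans, procollagens and other matrix proteins. Tissue inhibitors of metalloproteinases, the TIMPs, hold both families in check. Many ADAM genes are used mainly in the testis and epididymis, where their products act in sperm maturation and fertilisation, and several have lost the catalytic site.

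Values are linear probe-set intensities as deposited, and differences are Eph_EN_DN minus Eph_EN on the scale log2(intensity + 16), which understates the change of dim genes. Adjusted p-values come from limma over all 13331 genes left after the dimmest 40% of probe sets were set aside, and the threshold was an adjusted p under 0.05. Intensities of different probe sets are not comparable between genes, so levels are set only against the array. The array medians were 35.6 and 35.9 in the Eph_EN and 38.1 and 40.8 in the Eph_EN_DN tumours. The ratio of 3' to 5' signal, a sign of RNA quality, was higher in both Eph_EN_DN tumours for Gapdh (1.11 to 1.17 against 0.938 to 1.04) and for beta-actin (1.31 to 1.34 against 1.11 to 1.19). Signal of 18S ribosomal RNA on its control probe sets was also higher (6.76 and 7.43 against 5.43 and 6.40 on the log2 scale). As to the epithelial label, Krt8, a luminal keratin, read 1470 to 2048 units in the 4 tumours. Of 9 epithelial markers 6 lay above the array median everywhere, against 53.9% of all named genes. Krt5, Krt19 and Esrp1 did not, with Krt19 at 3.41 to 15.8 units and Esrp1 at 7.72 to 28.6.

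Of the 43 genes, 19 were expressed, which means here that the intensity lay above the array median in all 4 tumours. This is 12 of 28 ADAM and 7 of 15 ADAMTS genes, whereas over all named genes the share was 53.9%. The expressed ADAM genes were Adam4, Adam8, Adam9, Adam10, Adam11, Adam12, Adam15, Adam17, Adam19, Adam21, Adam22 and Adam33. The expressed ADAMTS genes were Adamts1, Adamts4, Adamts5, Adamts7, Adamts9, Adamts10 and Adamts12. Olfactory receptor genes, which should be silent in a mammary tumour, gave a stricter floor. Against the 95th percentile of their 44 probe sets (55.2 to 72.8 units by array) 16 members stayed above in all 4 tumours, and Adam4, Adam11 and Adamts10 did not.

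**Figure D1:**
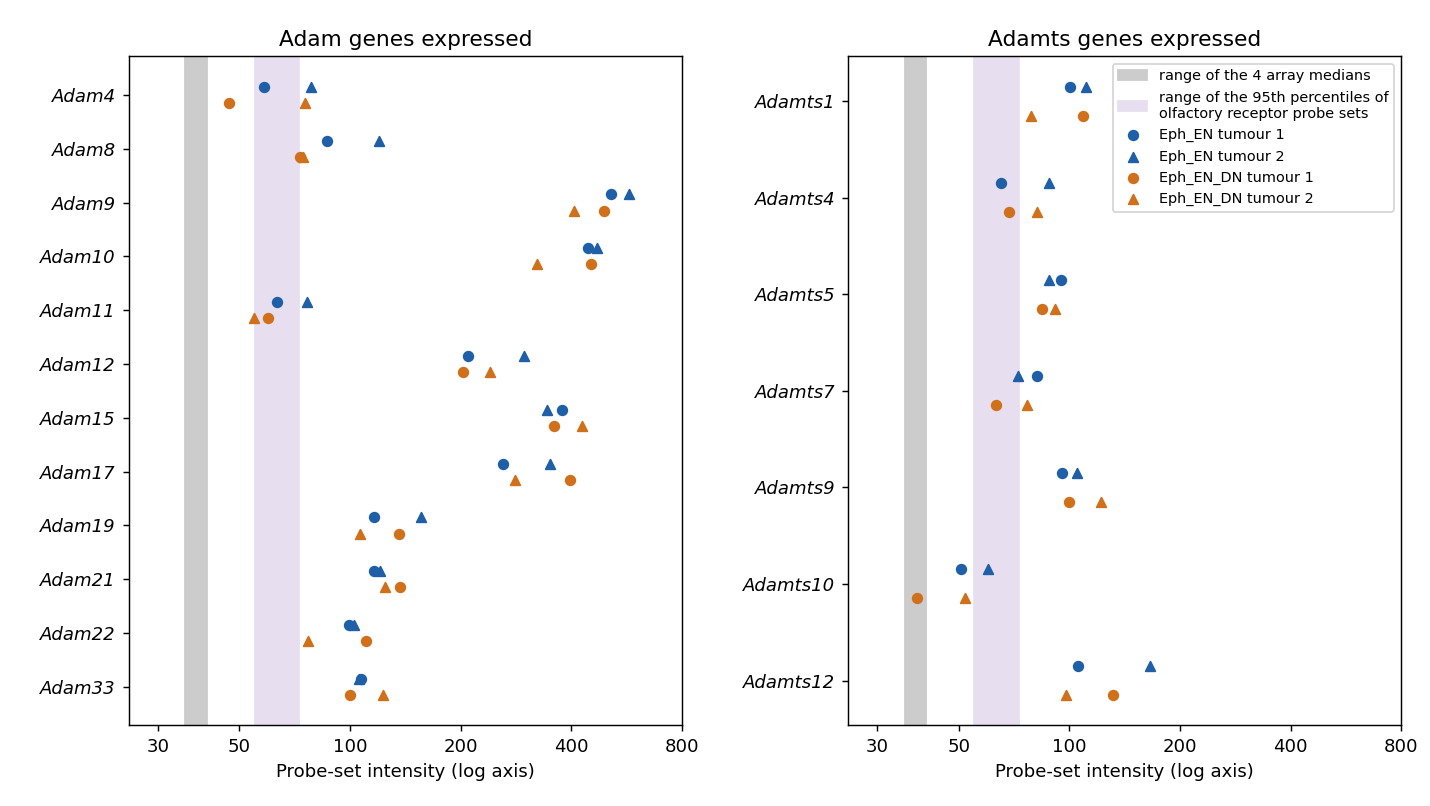
Intensity (log axis) of the 12 ADAM and 7 ADAMTS genes expressed in all 4 tumours, with 1 point per tumour, blue for Eph_EN and orange for Eph_EN_DN. The grey band spans the array medians (35.6 to 40.8) and the violet band the 95th percentiles of olfactory receptor probe sets (55.2 to 72.8); for most genes the blue and orange points interleave.

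Of the 29 members bright enough to be tested, 0 rose and 0 fell. Over all genes tested, 0.555% passed in limma, 0.135% higher and 0.42% lower in the Eph_EN_DN tumours. The lowest adjusted p of a member was 0.415, for Adam28, which was also the only member with an unadjusted p under 0.05 (1 of 29, against 9.8% of all genes tested). On the log2(intensity + 16) scale no member tested differed 2-fold or more, which 1.22% of all genes tested did. With 1 in place of 16 added, Adam28 passed 2-fold (1.202, adjusted p = 0.432), as did 3.77% of all genes. Without Eph_EN tumour 1 the 2 members past 2-fold were Adam28 (1.09) and Adam1b, against 2.94% of all genes. Adam1b was lower there and was read by another probe set, at 59.8 units in Eph_EN tumour 2 against 35.4 and 6.94 in the Eph_EN_DN tumours. The probe set used elsewhere for Adam1b ranged from -0.23 to 0.27 with each tumour left out in turn. With no filter the dim Adam6b was the only member past 2-fold (-1.44), against 1.8%. For 22 of the 29 the 95% interval of the difference lay within 2-fold either way, against 78.6% of all genes tested. Among these were all 19 expressed members, whose intervals together spanned -0.86 to 0.64. The differences of the 29 ran from -0.62 (Adam23) to 0.84 (Adam28).

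The groups did not overlap in 7 of the 29 (24.1%), against 40.2% of all genes tested. Adam28 and Adam21 were the 2 members higher in both Eph_EN_DN tumours (20.2% of all genes tested were), and Adam8, Adam9, Adam11, Adam23 and Adamts16 the 5 that were lower (20% of all genes). In 19 of the 29 the difference was below 0, as it was for 47.8% of all genes tested. With arrays centred on their medians these became 21 of the 29 and 60.2%. The median was -0.14 for the 18 ADAM genes and -0.063 for the 11 ADAMTS genes, against 0.019 over all genes tested. Both medians turned when Eph_EN tumour 2 was left out, to 0.030 and 0.086. In that tumour the median deviation of the ADAM genes from their own means was 0.17 and in Eph_EN_DN tumour 2 it was -0.16, while Eph_EN tumour 1 stood at -0.0093, below Eph_EN_DN tumour 1 at 0.024. The ADAM deviations thus overlapped between the groups. Those of the ADAMTS genes did not, at 0.021 and 0.14 in the Eph_EN and -0.065 and -0.0088 in the Eph_EN_DN tumours. These are medians over genes, were not set against all genes tested, and need not move with the median difference. Gene by gene, 1 of the 11 ADAMTS genes tested had groups that did not overlap.

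**Figure D2:**
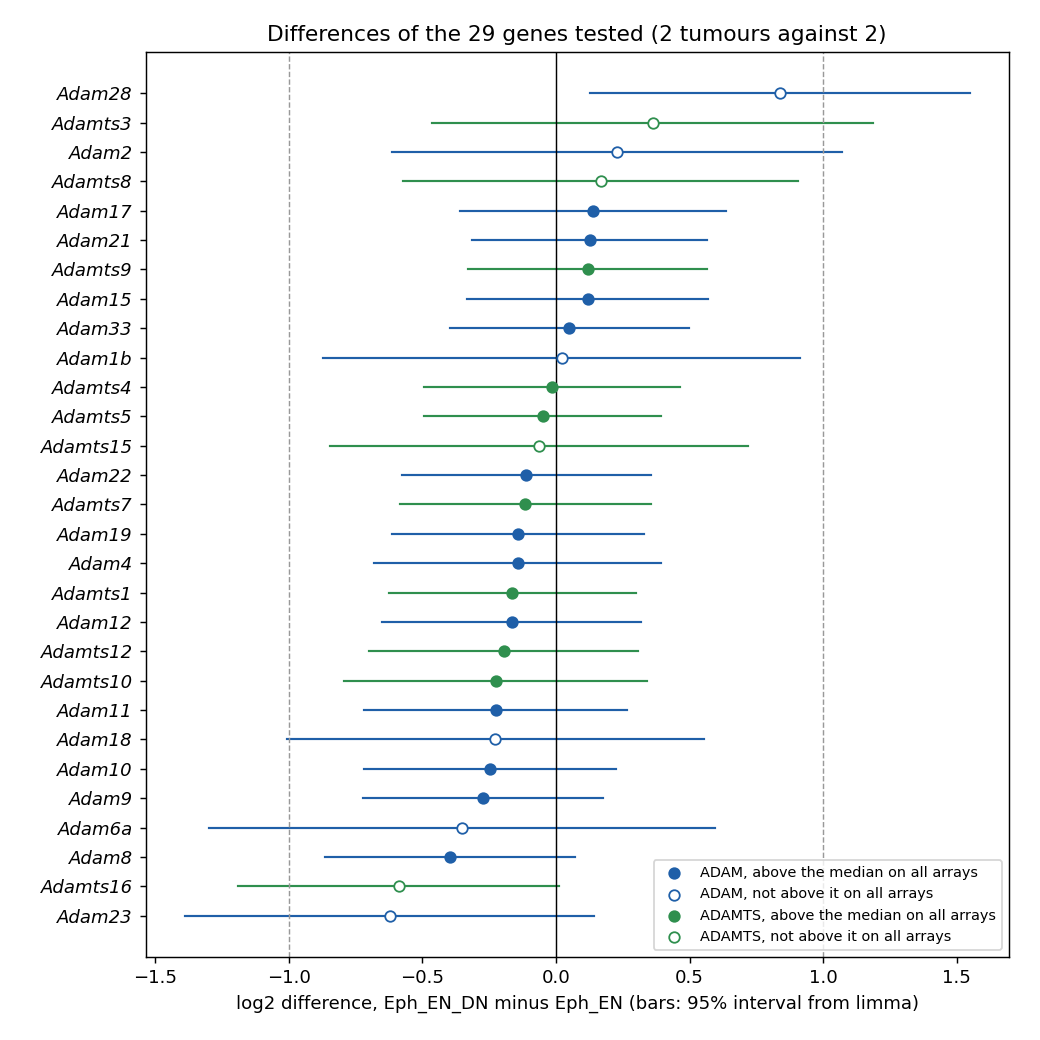
Differences on the scale log2(intensity + 16), Eph_EN_DN minus Eph_EN, for the 29 members tested, with 95% intervals from limma and dashed lines at 2-fold either way. Filled points are genes above the array median in all 4 tumours; Adam28 at 0.84 has the only interval that leaves out 0, and its adjusted p was 0.415.

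Among the sheddases known from many tissues, 8 of 9 were expressed and 0 of 9 passed. Adam10 cuts Notch receptors and cadherins. It read 445 and 469.8 units in the Eph_EN tumours and 453 and 323 in the Eph_EN_DN tumours, so that Eph_EN_DN tumour 2 was low and the other 3 lay together. The difference was -0.25 ± 0.22 (SE, 95% interval -0.72 to 0.22, adjusted p = 0.766), and it was -0.014 without Eph_EN_DN tumour 2. Adam17, the converting enzyme of tumour necrosis factor and the main sheddase of EGF receptor ligands, read 259.9 and 350.4 units in the Eph_EN and 396 and 281 in the Eph_EN_DN tumours. The groups overlapped, with a difference of 0.14 ± 0.24 (interval -0.36 to 0.64, adjusted p = 0.896). Its other probe sets stood at -0.12 and -0.20.

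Adam9, a broadly expressed sheddase that processes several growth factors, read 514 and 575 units in the Eph_EN tumours and 491 and 406 in the Eph_EN_DN tumours. Both Eph_EN_DN tumours were lower, by -0.27 ± 0.21 (interval -0.72 to 0.17, adjusted p = 0.719). Adam15, which carries an integrin-binding sequence in its disintegrin domain, read 377 and 342 against 359 and 427 units. The groups overlapped (0.12 ± 0.21, interval -0.33 to 0.57, adjusted p = 0.906). The name of its probe set ends in _x_at, which marks probes that can also bind other transcripts; a second probe set kept for the gene was at 0.24.

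Adam8 is a sheddase of myeloid cells and of some carcinoma cells. It read 86.6 and 119.5 units in the Eph_EN and 73.0 and 74.3 in the Eph_EN_DN tumours. Both Eph_EN_DN tumours were lower and lay close together, and the difference of -0.40 ± 0.22 (interval -0.86 to 0.070, adjusted p = 0.589) was the one farthest from 0 among the 19 expressed members. It ranged from -0.60 to -0.20 with each tumour left out in turn. In the same tumours all 8 macrophage markers had differences below 0, and 0 of the 8 passed the threshold. Their summed intensity was 11852 to 14468 units in the Eph_EN and 7369 to 9084 in the Eph_EN_DN tumours, and no marker on that list was at 0. The part of macrophage number in the Adam8 values was not tested, and in bulk tumours fewer cells of a type and less RNA per cell cannot be told apart.

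Adam12 and Adam19, the meltrins alpha and beta, are expressed in mesenchymal and muscle precursor cells, and Adam12 is often raised in breast carcinoma. Adam12 read 209.7 and 297 units in the Eph_EN and 203 and 240.1 in the Eph_EN_DN tumours, with overlapping groups (-0.17 ± 0.23, adjusted p = 0.865). A second Adam12 probe set read 118 and 129 against 99.5 and 95.9 units. There both Eph_EN_DN tumours were lower, by -0.29 (adjusted p = 0.712 with every probe set tested separately). Adam19 read 116 and 156 against 136 and 106 units (-0.14 ± 0.22, adjusted p = 0.882). Its second probe set read 41.1 and 44.1 against 42.4 and 64.6 units, also with overlapping groups but at 0.23, so its direction depended on the probe set. Of 9 fibroblast markers 8 had differences below 0, and 0 passed the threshold. They summed to 19048 and 25894 units in the Eph_EN and 17028 and 14707 in the Eph_EN_DN tumours. Their part in the Adam12 and Adam19 values was not tested. Adam33, a gene of fibroblasts and smooth muscle, read 107 and 106 against 99.8 and 123 units (0.050, interval -0.40 to 0.50).

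Adam28 had the largest difference of any member tested and was not expressed by the rule above. It is a membrane-bound and secreted protease first found in lymphocytes and in the epididymis. It read 31.0 and 17.2 units in the Eph_EN tumours and 59.8 and 49.8 in the Eph_EN_DN tumours, with means of 24.1 ± 9.72 and 54.8 ± 7.07 (SD, n = 2 each). The Eph_EN values lay below and the Eph_EN_DN values above their array medians. The difference was 0.84 ± 0.34 (interval 0.13 to 1.55, unadjusted p = 0.024, adjusted p = 0.415), and it ranged from 0.59 to 1.09 with each tumour left out in turn. Against the 95th percentile of olfactory receptor probe sets on the same array, Eph_EN_DN tumour 1 was above (55.2) and Eph_EN_DN tumour 2 below (72.8). A second, dimmer Adam28 probe set was at -0.14, with overlapping groups. Of 6 lymphocyte and NK markers 3 had differences above 0, and their summed intensity of 685 to 858 units in the Eph_EN and 618 to 693 in the Eph_EN_DN tumours overlapped. The largest part of that sum was Ptprc, at 310 to 512 units. Single markers went both ways without overlap, with Cd3e higher (0.44) and Cd4 (-0.45) and Prf1 (-0.80) lower in the Eph_EN_DN tumours. Of the 6, 0 passed the threshold. Adipocyte markers (5 of 7 on the array, of which all 4 tested rose and none was at 0) summed to 339 and 512 units in the Eph_EN and 1375 and 5942 in the Eph_EN_DN tumours, and their part in the Adam28 values was not tested.

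The 3 ADAM genes without a working catalytic site that are best known from the nervous system are Adam11, Adam22 and Adam23. By the probe set used for each gene all had differences below 0, and 0 passed. Their products bind the secreted LGI proteins at synapses rather than cut substrates. Adam23 read 37.4 and 50.8 units in the Eph_EN and 22.1 and 23.5 in the Eph_EN_DN tumours, so that only the Eph_EN values were above their array medians. The difference was -0.62 ± 0.36 (interval -1.39 to 0.14, adjusted p = 0.613), and 2 dimmer Adam23 probe sets, set aside by the filter, were at -0.21 and 0.70. The one at 0.70 was higher in both Eph_EN_DN tumours. Adam11 read 63.5 and 76.2 against 59.6 and 54.8 units (-0.23, interval -0.72 to 0.27). Its second probe set, also left after the filter, was at 0.43 with overlapping groups, so its direction depended on the probe set. Adam22 read 99.6 and 102 against 111 and 76.9 units, with overlapping groups (-0.11, interval -0.58 to 0.36). A dimmer Adam22 probe set, set aside by the filter, was at -0.73.

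Of the 16 other ADAM genes, most of them known from the reproductive tract, 6 were left after the filter, 2 were expressed and 0 passed. The expressed ones were Adam21 and Adam4. Adam21 read 116 and 121 units in the Eph_EN and 137 and 125 in the Eph_EN_DN tumours, a narrow gap (0.13 ± 0.21, adjusted p = 0.891). Adam4 read 58.3 and 78.4 against 46.9 and 75.4 units, below the olfactory receptor floor in some tumours. Adam2, a fertilin subunit of sperm, read 29.2 and 24.6 against 22.3 and 49.7 units (0.23 ± 0.40, adjusted p = 0.902), and only Eph_EN_DN tumour 2 was above its array median. Adam18 read 34.2 and 38.8 against 38.8 and 20.6 units (-0.23 ± 0.37, adjusted p = 0.890), and Adam6a read 19.0 and 50.8 against 28.7 and 16.1 (-0.35 ± 0.45, adjusted p = 0.848). For both the groups overlapped and the intervals reached beyond 2-fold. Adam1b stood at 0.021, or at -0.56 with the probe set that has the highest linear mean. Adam1a and Adam1b, like Adam6a and Adam6b, are neighbours in the gene order. Whether the probes of such a pair read each other was not tested.

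The 14 members set aside as dim were Adam1a, Adam3, Adam5, Adam6b, Adam7, Adam24, Adam25, Adam26a, Adam32, Adam34, Adamts6, Adamts18, Adamts19 and Adamts20. Their values lay between 0 and 70.7 units, and none was above the array median in all 4 tumours. The extremes were both of Adam6b, at 9.19 and 70.7 units in the Eph_EN and 2.47 and 0 in the Eph_EN_DN tumours. In 8 of the 14 the groups overlapped, in 4 the Eph_EN_DN tumours were higher and in 2 lower. Among all 4862 genes set aside as dim 33.3% did not overlap, 20.4% higher and 13% lower. With no filter 0 of all 43 passed.

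Among the proteoglycan-cleaving ADAMTS genes, 4 of 7 were expressed and 0 of 6 tested passed. Adamts1, which cuts versican and restrains blood vessel growth, read 101 and 111 units in the Eph_EN and 109 and 78.5 in the Eph_EN_DN tumours. The groups overlapped, with Eph_EN_DN tumour 2 lowest (-0.16 ± 0.22, interval -0.63 to 0.30, adjusted p = 0.859). The aggrecanases Adamts4 and Adamts5 differed by -0.014 (interval -0.49 to 0.47) and -0.050 (interval -0.49 to 0.39). Adamts5 read 94.95 and 88.3 against 84.5 and 91.5 units, and Adamts4 read 65.0 and 87.7 against 68.5 and 81.5. Adamts9, a conserved versican-cleaving enzyme, read 95.8 and 105 against 99.9 and 122 units (0.12 ± 0.21, interval -0.33 to 0.57, adjusted p = 0.903). A dimmer Adamts9 probe set read 38.4 and 74.5 against 31.7 and 24.4 units, and there both Eph_EN_DN tumours were lower (-0.68, adjusted p = 0.543 with every probe set tested separately). Adamts8 and Adamts15 were not above the median in all tumours. Adamts8 read 73.1 units in Eph_EN_DN tumour 1 and 25.8 to 38.4 in the other 3.

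Adamts12 and Adamts7, which cut cartilage oligomeric matrix protein, were both expressed. Adamts12 read 105 and 166 units in the Eph_EN and 131 and 97.9 in the Eph_EN_DN tumours, with overlapping groups (-0.20 ± 0.24, interval -0.70 to 0.31, adjusted p = 0.842). Adamts7 read 81.6 and 72.3 against 63.3 and 76.8 units (-0.11, interval -0.58 to 0.36). Adamts10, which associates with fibrillin microfibrils, read 50.9 and 59.9 against 38.6 and 52.1 units (-0.23, interval -0.79 to 0.34). Adamts3, a procollagen amino-propeptidase that also activates VEGF-C, read 35.0 and 18.4 against 50.3 and 27.7 units (0.36 ± 0.39, adjusted p = 0.817). Its second probe set read 29.8 and 54.2 against 26.7 and 13.3 units, lower in both Eph_EN_DN tumours (-0.68), so its direction depended on the probe set.

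Adamts16, of less settled substrate, had the difference farthest from 0 among the 11 ADAMTS genes tested. It read 64.3 and 53.0 units in the Eph_EN tumours and 36.4 and 30.8 in the Eph_EN_DN tumours, above the array medians in the first group and below them in the second. The difference was -0.59 ± 0.28 (interval -1.19 to 0.013, adjusted p = 0.522), and it ranged from -0.70 to -0.48 with each tumour left out in turn. The other Adamts16 probe set read 27.0 and 26.4 against 30.6 and 34.2 units, the opposite direction without overlap (0.18).

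Probe sets of the same gene often went different ways. Of 10 members with more than 1 probe set left after the filter, 8 had differences of both signs, and Adam12 and Adam15 had 1 sign. None of the 42 member probe sets kept passed when every probe set was tested separately.

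**Figure D3:**
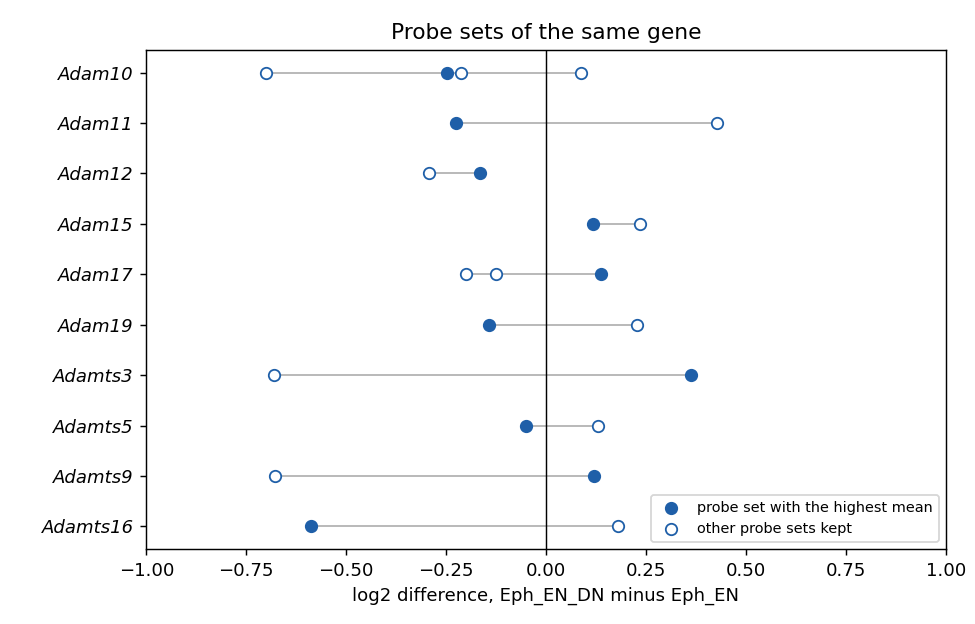
Differences on the scale log2(intensity + 16), Eph_EN_DN minus Eph_EN, of every probe set kept for the 10 members that had more than 1, with the probe set used for the gene filled. In 8 of the 10 genes the points lie on both sides of 0, and the widest spreads are those of Adamts3 (-0.68 to 0.36), Adamts9 (-0.68 to 0.12), Adam10 (-0.70 to 0.087) and Adamts16 (-0.59 to 0.18).

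Since TAM67 acts on AP-1, the promoters of the members were searched for the AP-1 site TGAGTCA on both strands (TGACTCA on the other) and for the related cyclic AMP element TGACGTCA, which reads the same on both strands. Sequences of the 250 bases before the start of transcription came from RefSeq (GRCm38.p6) and were there for 20 of the 43 members, in 22 windows. The first motif was in 1 of the 22 windows, against 4.46% of 32851 windows of the same length, and the second in 0, against 1.55%. The match was in 1 of the 3 Adam19 windows, 131 bases before that start. It is printed below with the motif in capitals because it is the only match, beside Adam8, the expressed member with the difference farthest from 0, and Adam17, the converting enzyme of tumour necrosis factor, whose window, like that of Adam8, held neither motif. The windows are chr11:46055734-46055983 on the plus strand, chr7:139992563-139992812 on the minus strand and chr12:21373633-21373882 on the minus strand, each written 5' to 3' along the gene.
Adam19: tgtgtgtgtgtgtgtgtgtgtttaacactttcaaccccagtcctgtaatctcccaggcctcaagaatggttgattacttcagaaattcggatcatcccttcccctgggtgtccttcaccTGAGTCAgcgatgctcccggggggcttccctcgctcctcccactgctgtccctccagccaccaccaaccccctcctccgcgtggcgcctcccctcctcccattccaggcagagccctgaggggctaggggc
Adam8: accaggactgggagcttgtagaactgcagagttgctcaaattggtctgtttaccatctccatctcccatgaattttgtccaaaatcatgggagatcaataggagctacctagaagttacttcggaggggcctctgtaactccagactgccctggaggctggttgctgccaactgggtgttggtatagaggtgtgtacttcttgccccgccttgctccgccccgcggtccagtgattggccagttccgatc
Adam17: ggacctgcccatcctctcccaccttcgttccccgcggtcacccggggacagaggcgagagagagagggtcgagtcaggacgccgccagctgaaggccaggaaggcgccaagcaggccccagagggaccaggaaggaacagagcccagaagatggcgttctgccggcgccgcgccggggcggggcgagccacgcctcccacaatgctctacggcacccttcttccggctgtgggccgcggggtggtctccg
The GC content was 52.8% in the Adam8 and 70.4% in the Adam17 window. Adam19 itself did not differ beyond the spread between tumours (-0.14, interval -0.62 to 0.33), and its second probe set was at 0.23.

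Several members lie side by side in the RefSeq gene order. On chromosome 8 the genes Adam18, Adam3, Adam5, Adam32 and Adam9 follow each other with no other protein-coding gene between them, and of these only Adam9 was expressed in all 4 tumours. On chromosome 16 the neighbours Adamts1 and Adamts5 were both expressed. On chromosome 9 the neighbours Adamts15 and Adamts8 were not above the array median in all tumours.

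Timp3 fell in the Eph_EN_DN tumours, the only 1 of the 5 inhibitors tested to pass the threshold. Timp3 is the matrix-bound TIMP that inhibits Adam17, Adam10 and the aggrecanases. It read 1124 and 688 units in the Eph_EN and 375 and 389 in the Eph_EN_DN tumours. Both Eph_EN_DN tumours were lower and lay close together (-1.17 ± 0.24, interval -1.67 to -0.67, adjusted p = 0.0354). All 4 Timp3 probe sets were lower without overlap (-0.78 to -1.17). Of 15 other fits 7 lost the call, which included leaving out Eph_EN tumour 1 (-0.82), Eph_EN_DN tumour 1 (-1.15) or Eph_EN_DN tumour 2 (-1.20). Of the 5 inhibitors tested, 1 passed lower and 0 higher, against 0.42% and 0.135% of all genes tested. This list too was chosen with earlier results of these data known, so its share is no test of the list. In 4 of the 5 the difference was below 0, with a median of -0.33. Timp1 read 1131 and 1591 against 871 and 987 units, also lower in both Eph_EN_DN tumours (-0.53, interval -0.97 to -0.081, adjusted p = 0.414). Reck, a membrane-anchored inhibitor, stood at 0.43 and was higher in both.

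Among genes that mature or carry the proteases, 0 of 9 passed, with a median of -0.14. Furin, which removes the prodomain of both families, differed by -0.14, and Rhbdf1 and Rhbdf2, the inactive rhomboids that bring Adam17 to the cell surface, by -0.18 and -0.24. The largest differences were those of Pcsk7 and Tspan5, and in both genes the Eph_EN_DN tumours were lower without overlap. Pcsk7, a proprotein convertase, read 86.3 and 97.1 against 80.6 and 54.98 units (-0.38, adjusted p = 0.632). Tspan5, a tetraspanin partner of the Adam10 protein, read 108 and 95.04 against 76.5 and 77.97 units (-0.33, adjusted p = 0.651). Of 7 ADAMTS-like and related genes 0 passed, with a median of 0.090. Adamdec1, a soluble relative of the ADAMs, read 18.3 and 17.6 against 79.6 and 32.9 units (1.01, adjusted p = 0.401), and both Eph_EN_DN tumours were higher. Adamtsl5 read 25.9 and 71.1 against 14.3 and 28.5 units, with overlapping groups (-0.72, adjusted p = 0.617).

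Of 19 sheddase substrates 0 passed, with a median of -0.052. The largest differences were those of Jag1 and Sdc1, each without overlap. Jag1, a Notch ligand, read 104 and 75.5 against 148 and 131 units, higher in both Eph_EN_DN tumours (0.57, adjusted p = 0.393). Sdc1, the proteoglycan syndecan 1, read 579.5 and 506 against 355 and 377 units, lower in both (-0.54, adjusted p = 0.393). Of 13 genes listed as ADAMTS substrates or clearance genes 2 fell and 0 rose, with a median of -0.50. Over all genes tested 0.42% passed lower and 0.135% higher. The list was chosen with earlier results of these data known, so the 2 of 13 is a description and no test of the list. Bgn, the small proteoglycan biglycan, read 2712 and 3988 units in the Eph_EN and 1422 and 1755 in the Eph_EN_DN tumours (-1.05 ± 0.20, adjusted p = 0.028). Of 15 other fits 6 lost it, which included leaving out Eph_EN tumour 2 (-0.77), Eph_EN_DN tumour 1 (-0.90) or Eph_EN_DN tumour 2 (-1.20). Eln, which encodes elastin, read 842 and 1505 against 104 and 99.5 units (-3.28). Whether ADAMTS proteases cut elastin was not examined here. Vcan, which encodes versican, read 43.4 and 65.0 against 33.4 and 31.7 units (-0.51, adjusted p = 0.619). The fibroblast markers, which share Col1a1, Col1a2, Col3a1 and Dcn with this list, had a median of -0.71 in the same tumours, and their part in these values was not tested.

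**Figure D4:**
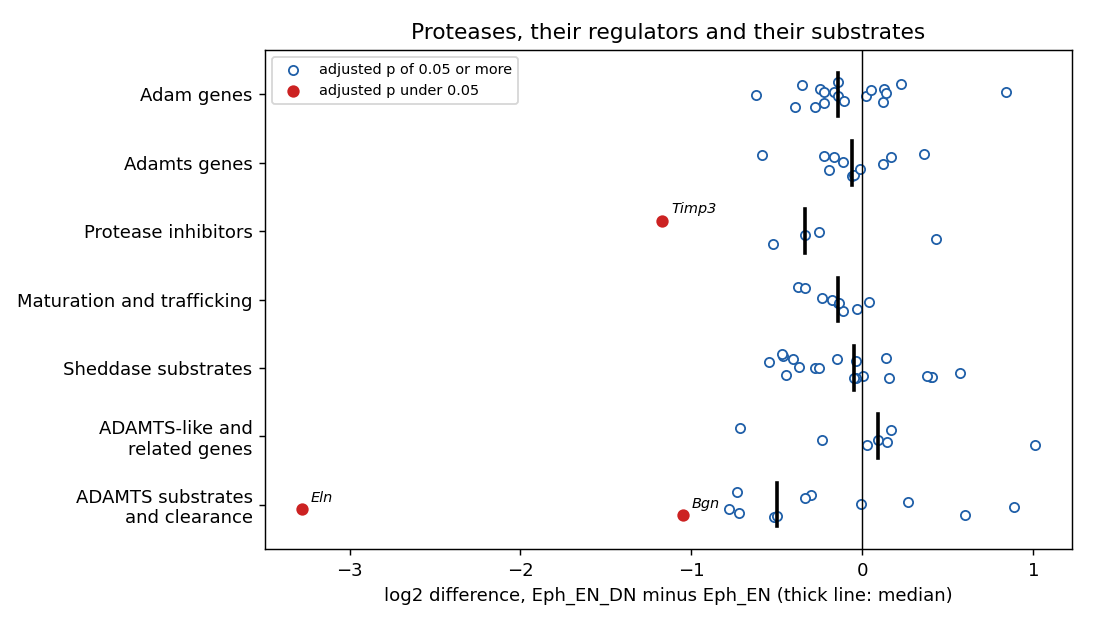
Differences on the scale log2(intensity + 16), Eph_EN_DN minus Eph_EN, for the ADAM and ADAMTS genes tested, their inhibitors, the genes that mature or carry them, the genes listed as their substrates, and related genes, with the median of each list as a thick line. Red points passed the threshold, which were Timp3 (-1.17), Bgn (-1.05) and Eln (-3.28), and no protease gene did.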

How the data were processed

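Total RNA of 4 tumours was hybridised to Affymetrix whole-genome mouse arrays as biotin-labelled cRNA, per the labels' protocols. The authors deposited 1 intensity per probe set and array, on a linear scale, for 45101 probe sets. Summarisation, background correction and scaling were not given in the sources used here, and no detection calls were used. Arrays have no depth, so their number limits the precision.

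Gene names came from the array's platform annotation, checked through Entrez IDs against RefSeq (0 symbols changed). Of 45037 probe sets other than controls, 34945 had 1 symbol, 932 several and 9160 none. A further 5 probe sets that list a member beside another gene were left out. After the dimmest 40% by mean log2(intensity + 16) were set aside, 27022 remained, and the brightest probe set of each of 13331 genes was tested with limma 3.58.1 in R 4.3.3 (intensity trend, two-sided, Benjamini-Hochberg adjustment, no term for the tumour number). The SE given after ± and the 95% intervals are limma's, which draws the variance of each gene toward that of genes of similar intensity. They can hence differ from the spread of the gene's own values. The fit was tested on simulated data. Other steps used Python 3.11.15 and matplotlib 3.10.9.

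The members, the role groups and the lists were chosen with earlier results of these data known. Values in every tumour were given by rule for the 10 largest differences, Adam9, Adam10, Adam15, Adam17 and the 3 brightest genes of each family, and from each pathway list for members past the threshold or, with none, the 2 largest. The rule also covered the marker lists, which are given here as counts and sums instead. All other genes named with values were chosen after their values were seen.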

Additional observations from a re-analysis of the deposited data

How the results depend on the processing

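With 2 tumours a group, and dim probe sets near the array medians, only large changes could pass. No ADAM or ADAMTS gene passed in limma under any other fit with all 4 tumours or at an adjusted p under 0.10. In those fits 0 to 3 had an unadjusted p under 0.05. The 74 calls over all genes became 38 with quantile normalization, 35 with probe sets averaged, 5 without the intensity trend, 17 at an adjusted p under 0.01, and 22 to 151 with 1 tumour left out. Equal tumour numbers are not tied together by the labels, and their deviations correlated at 0.0070. With the replicate block 11 genes and 0 members passed, and the Timp3 and Bgn calls were lost. Members with groups that did not overlap were 13 of 43 with no filter (38.3% of all genes), 4 of 19 with the dimmest 60% left out (41.8%) and 15 to 21 of 29 or 30 with 1 tumour left out (68.8% to 72.1%). The ADAM median ran from -0.30 to 0.030 with 1 tumour left out, and the ADAMTS median from -0.19 to 0.086. The ADAMTS median was -0.16 with quantile normalization, -0.16 with median centring and -0.16 with probe sets averaged. Of 232 values of the 15 members named by rule, 219 kept their direction and 13 turned. Changing the filter or the variance model, adding the replicate block or fitting probe sets singly left each of these differences exactly as it was. Such values could not turn, so their part of the 219 is no check of direction. With probe sets averaged, Adamts3 was at -0.16, Adam17 at -0.062 and Adamts9 at -0.28. With 1 tumour left out, and the brightest probe set chosen anew, the differences ran from -0.95 to 0.65 for Adamts3, where the value without Eph_EN_DN tumour 2 was -0.41. Both values of Adamts3 below 0 came from its second probe set, and with the probe set kept the range was 0.061 to 0.66. They ran from -0.16 to 0.62 for Adam2, from -0.52 to 0.064 for Adam18, from -0.0028 to 0.24 for Adam15 and from -0.098 to 0.38 for Adam17, which was at -0.066 without Eph_EN tumour 1. They ran from -0.49 to 0.095 for Adamts12, from -0.0049 to 0.24 for Adamts9 and from -0.36 to 0.037 for Adamts1. For Adam2, Adam18, Adam15, Adam17, Adamts12, Adamts9 and Adamts1 the range was the same with the probe set kept. Why single tumours moved these values was not tested. The choice of probe set by the linear mean, added after seeing the data, changed only Adam1b.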
